A study of Homo sapiens with 16 samples.

Results

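The genes described here build the route by which proteins enter mitochondria. They are the entries of the deposited expression table whose symbol is TOMM or TIMM followed by a digit, together with TIMMDC1, PAM16, DNAJC19, GRPEL1, HSPA9, CHCHD4, SAMM50, MTX1 and MTX2. The table held 32 such genes among 26830 entries, and PAM16 was not analysed here. Of the 32, 31 reached at least 1 TPM in at least 3 libraries and were tested, and TOMM20L did not.

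The libraries came from NOMO-1, a human line from acute monocytic leukaemia that the labels describe as acute myeloid leukaemia. Cells were treated for 72 h with 100 nM CS1 (n = 3), with 500 nM CS2 (n = 3) or with the solvent DMSO (n = 4), and CS1 and CS2 are presented by the series as inhibitors of FTO, the enzyme that removes the m6A mark from RNA. Separate cultures were infected with lentivirus for shFTO, a hairpin targeting FTO (n = 3), or for the control shNS (n = 3), were kept in 1 µg/ml puromycin for 1 week and were used as stably selected populations. How many hairpin sequences were used is not stated in these sources. The series text calls the replicates biological. Poly(A) RNA was sequenced and is given as TPM, an abundance per transcript length that sums to the same total in every library.

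Nearly all mitochondrial proteins are made in the cytosol and must cross 1 or both mitochondrial membranes. The TOM complex is the entry gate of the outer membrane, with TOMM40 as its channel, TOMM20, TOMM22 and TOMM70 as receptors, and TOMM5, TOMM6 and TOMM7 as small subunits. From there the SAM complex folds barrel proteins into the outer membrane, and the small TIM chaperones carry hydrophobic proteins across the intermembrane space. TIM22 inserts carrier proteins into the inner membrane, and TIM23 threads proteins with a cleavable targeting signal through it, pulled by a motor around the chaperone HSPA9. AML cells are known to lean on mitochondrial respiration, for which this import is a requirement.

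Across genes, replicates of a group correlated with Pearson's r between 0.9877 and 0.993 on the log2(TPM + 1) scale, and each library had 18675 to 19358 entries above 0. TPM keep no read numbers, so depth and counting error are unknown. Among 10 monocytic leukaemia markers, 8 were tested and passed in every comparison with a control, 7 higher and 1 lower with CS1, 7 higher and 1 lower with CS2, and 6 higher and 2 lower with the hairpin (CEBPA was lower in all 3 and SPI1 with the hairpin), while CD14 and MPO stayed under 1 TPM in every library. The summed TPM of the 10 markers was 1420 to 1536 in CS1, 1654 to 1725 in CS2 and 783 to 818 in DMSO libraries, and 3523 to 4172 in shFTO libraries, of which LYZ alone gave a mean of 2226, against 1067 to 1120 in shNS libraries. Thus the marker sum moved with every treatment described below, and its part in the results for import genes was not tested. Markers of other cell types were low but also moved. The 6 lymphocyte markers (CD3E at 0) summed to 9.35 to 11.5 TPM in CS1, 7.73 to 9.4 in CS2 and 5.05 to 6.04 in DMSO libraries, and to 8.82 to 10.43 in shFTO against 5.02 to 5.4 TPM in shNS libraries, and the 3 tested rose with each compound and 2 of them with the hairpin. For 7 epithelial and fibroblast markers (KRT19 at 0) the sums were 5.35 to 6.45 TPM in CS1, 7.73 to 9.17 in CS2 and 5.08 to 5.43 in DMSO libraries, and 6.1 to 6.95 in shFTO against 4.34 to 5.73 TPM in shNS libraries. For 7 erythroid and megakaryocyte markers (HBA1 at 0) they were 1.04 to 1.45 TPM in shFTO and 0.45 to 0.48 TPM in shNS libraries, and 0.16 to 0.66 TPM in the other groups. The part of these markers in the results was not tested either. FTO itself had 8.12, 7.49 and 8.35 TPM in shFTO libraries, against 31.3, 30.8 and 32.8 TPM in shNS libraries, a log2 fold change of -1.86 (limma, Benjamini-Hochberg adjusted p = 7.38e-12).

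The 300 bases around the RefSeq start are shown for 4 genes named in the results below. TOMM40 and TIMM10 had the deepest falls with the FTO hairpin. TOMM20 fell in all 3 comparisons with a control, as did TIMM13, TOMM22 and TOMM6 as deposited, which are not shown. TOMM7 fell with both compounds but rose with the hairpin. Each window runs 5′ to 3′ along the gene's own strand, 250 bases before the start and 50 after it, in build GRCh38.p14. Capitals mark 3 motifs searched on both strands, the E-box CACGTG, the NRF1 motif (spelled out for each gene below) and the ETS motif CCGGAAGT. NRF1 and ETS family factors are textbook regulators of nuclear genes for mitochondrial proteins, and the E-box is bound by MYC among others.
TOMM40, chr19:44891004-44891303, plus strand: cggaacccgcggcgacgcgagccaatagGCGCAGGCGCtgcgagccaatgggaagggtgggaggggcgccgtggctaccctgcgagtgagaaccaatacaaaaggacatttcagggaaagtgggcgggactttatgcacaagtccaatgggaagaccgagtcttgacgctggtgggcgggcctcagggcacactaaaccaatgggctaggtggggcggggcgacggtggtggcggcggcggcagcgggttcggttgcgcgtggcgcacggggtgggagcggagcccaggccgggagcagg
TIMM10, chr11:57530705-57531004, minus strand: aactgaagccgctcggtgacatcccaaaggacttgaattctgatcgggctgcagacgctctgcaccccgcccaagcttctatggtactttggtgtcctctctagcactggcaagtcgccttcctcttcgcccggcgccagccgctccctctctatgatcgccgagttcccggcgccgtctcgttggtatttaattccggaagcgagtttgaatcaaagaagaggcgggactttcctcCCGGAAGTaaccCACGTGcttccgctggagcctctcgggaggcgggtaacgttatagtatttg
TOMM20, chr1:235128788-235129087, minus strand: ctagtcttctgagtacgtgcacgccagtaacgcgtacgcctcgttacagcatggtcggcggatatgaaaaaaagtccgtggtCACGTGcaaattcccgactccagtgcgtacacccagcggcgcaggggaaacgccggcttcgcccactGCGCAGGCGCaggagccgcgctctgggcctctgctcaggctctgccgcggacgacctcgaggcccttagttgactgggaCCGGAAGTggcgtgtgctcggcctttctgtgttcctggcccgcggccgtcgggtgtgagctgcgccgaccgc
TOMM7, chr7:22822800-22823099, minus strand: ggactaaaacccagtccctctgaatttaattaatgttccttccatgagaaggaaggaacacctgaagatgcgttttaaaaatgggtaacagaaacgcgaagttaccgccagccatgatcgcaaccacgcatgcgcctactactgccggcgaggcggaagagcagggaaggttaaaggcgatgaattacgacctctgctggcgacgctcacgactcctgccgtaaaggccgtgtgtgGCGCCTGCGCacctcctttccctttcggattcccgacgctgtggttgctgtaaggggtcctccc

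The NRF1 motif lies at bases 29 to 38 of the TOMM40 window, 150 to 159 of the TOMM20 window and 237 to 246 of the TOMM7 window, counted from the 5′ end. Those of TOMM40 and TOMM20 read GCGCAGGCGC, and that of TOMM7 reads GCGCCTGCGC, which is the motif on the other strand. The ETS motif lies at bases 238 to 245 in TIMM10, followed by an E-box at 250 to 255 across the transcription start, and at 229 to 236 in TOMM20, which also has an E-box at 83 to 88. No 2 of these marked stretches overlap. Each of the 4 windows shown holds a motif, which is not so for every gene searched. Of the 32 genes, 29 had a window in the RefSeq table. The NRF1 motif was in 5 of the 29 (CHCHD4, TOMM20, TOMM34, TOMM40 and TOMM7), and in 5.78% of 35116 windows of the same length. The ETS motif was in 7 (MTX2, TIMM10, TIMM10B, TIMMDC1, TOMM20, TOMM6 and TOMM70), and in 4.14% of all windows. The E-box was in 4 (HSPA9, TIMM10, TIMM8A and TOMM20), and in 7.26% of all windows. Import genes were counted by gene, with a motif in any window of the gene, and the background by window. The shares are therefore not in the same unit. With the FTO hairpin all 4 genes with the E-box fell. Of the 5 with the NRF1 motif 4 fell and TOMM7 rose. Of the 7 with the ETS motif 4 fell and MTX2 and TIMM10B rose. Over the 31 tested import genes 25 fell and 4 rose, as did 24.5% and 31.9% of all entries. With CS2 all 4 E-box genes fell, as did 3 of 5 NRF1 genes (2 rose) and 5 of 7 ETS genes (1 rose). There 21 of the 31 fell and 4 rose, as did 24.6% and 49.5% of all entries. With CS1 the falls and rises were 1 and 2 for the E-box, 2 and 2 for NRF1 and 3 and 3 for ETS. There 6 of the 31 fell and 11 rose, as did 14.3% and 37.5% of all entries. The part of the motifs was not tested.

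All 32 genes were placed in GENCODE 29 (GRCh38). TOMM40 (ENSG00000130204) spans chr19:44890569-44903689 on the plus strand, and TIMM10 (ENSG00000134809) spans chr11:57528463-57530803 on the minus strand, and neither shares exon bases with another annotated gene. The RefSeq window of TOMM40 shown above lies wholly inside its GENCODE span. For TOMM40 the bases before the RefSeq start, with the NRF1 motif, are thus not upstream of the gene as GENCODE places it. For 18 of the 32, exon bases are shared with another gene, 15 of them with a protein coding one, and whether the libraries keep strand is not stated. The reads of those 18 could have been divided between genes in different ways. TIMM13 shares exon bases with LMNB2 and TMPRSS9, TIMM8B with SDHD and NKAPD1, TIMM10B with ARFIP2, TIMM17B with PQBP1, MTX1 with THBS3 and GBAP1, and SAMM50 with PNPLA3. TOMM6 shares them with AL365205.1 and USP49, TOMM5 with AL513165.2 and AL138752.2, TIMM9 with KIAA0586 and TOMM20L, and TIMM23B with PARG and LINC00843. Not all of the 18 are named here. TIMM23 and TIMM23B are near-identical copies, so that the division of reads between them is uncertain.

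The level of the import genes in DMSO libraries differed widely between genes. TOMM6, a small TOM subunit, was the highest at 2839 ± 109 TPM (SD, n = 4), followed by HSPA9 at 423 ± 5.77, TOMM40 at 265 ± 18.5, TOMM20 at 253 ± 6.45 and TOMM5 at 221 ± 11.2 TPM. TOMM40 and TOMM20, neighbours in that order, had overlapping libraries. At the low end stood TIMM22 at 32.8 ± 2.55 and TOMM40L, a relative of TOMM40, at 28.7 ± 2.02 TPM. TOMM20L, a relative of TOMM20, was at 0.11 to 1.07 TPM in all 16 libraries. The summed TPM of the 32 genes was 5494 ± 252 in CS1 (SD, n = 3), 4386 ± 33.9 in CS2 (n = 3) and 5924 ± 189 in DMSO libraries (n = 4), and 3722 ± 224 in shFTO against 4966 ± 88.8 in shNS libraries (n = 3 each). The groups of each compared pair did not overlap except CS1 and DMSO, where CS1 had 5304 to 5781 and DMSO 5729 to 6120. TOMM6 alone made up between 42.9% and 50.3% of the sum. Without it the sums were 3057 ± 81.2 in CS1, 2473 ± 12.2 in CS2 and 3085 ± 80.2 TPM in DMSO libraries, and 1930 ± 41.4 in shFTO against 2566 ± 45.4 TPM in shNS libraries. In bulk RNA, fewer transcripts per cell and a change in the make-up of the culture cannot be told apart. Ribosomal RNA entries took 1.04% to 1.33% of TPM in CS1, 0.828% to 2.95% in CS2 and 1.77% to 4.58% in DMSO libraries, and 2.53% to 3.37% in shFTO against 1.75% to 4.48% in shNS libraries. Entries that resemble mitochondrial RNA took 2.97% to 3.02% in CS1, 2.94% to 3.2% in CS2 and 3.49% to 3.55% in DMSO libraries, and 4.13% to 4.29% in shFTO against 3.75% to 3.79% in shNS libraries, without overlap in any compared pair with a control. The part of both shares in the results for single genes was not tested. With both kinds of entry left out and TPM rescaled, the sums were 5732 in CS1, 4607 in CS2 and 6354 in DMSO libraries, and 4013 in shFTO against 5309 TPM in shNS libraries, in the same order within each pair, and CS1, at 5528 to 6023, no longer overlapped DMSO, at 6233 to 6466 TPM.

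Most import genes were lower with the FTO hairpin. Of the 31 tested, 25 fell and 4 rose, and all machines had members that fell. Among all 14951 entries tested, 24.5% were called lower and 31.9% higher at an adjusted p under 0.05, so the falls were a larger share among import genes than in the table, and the rises a smaller one. The median log2 fold change was -0.50 over the 31 genes and 0.07 over all entries. TOMM40 fell the most: it had 38.1, 36.6 and 43.2 TPM in shFTO libraries, against 162, 165 and 167 TPM in shNS libraries. The groups were far apart, and the 3 shFTO libraries were the lowest of all 16. The fall was 4.11-fold on the log2(TPM + 1) scale, a log2 fold change of -2.04 (SE 0.077, 95% interval -2.2 to -1.88, limma, adjusted p = 3.44e-11). Ranked by log2 fold change from the lowest, TOMM40 was number 8 of the 14951 entries tested.

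The rest of the TOM complex fell less, apart from 2 members. TOMM22, the central receptor, had 70.6, 71.2 and 91.9 TPM in shFTO libraries, against 121, 128 and 122 in shNS libraries, and TOMM5 averaged 129 ± 10.6 TPM in shFTO and 187 ± 1.91 TPM in shNS libraries. TOMM20, the receptor for targeting signals, had 165, 177 and 140.2 TPM in shFTO libraries, against 225, 231 and 237 TPM in shNS libraries. These 3 fell without overlap, by log2 fold changes of -0.67, -0.54 and -0.53 (limma, adjusted p = 4.12e-06, 5.43e-07 and 1.79e-05). TOMM6 averaged 1792 ± 188 TPM in shFTO and 2399.5 ± 43.6 TPM in shNS libraries, and it fell too (log2 fold change -0.43). TOMM34, a cytosolic co-chaperone that hands precursors to the gate, averaged 32.3 ± 0.865 TPM in shFTO and 40 ± 1.19 TPM in shNS libraries and fell by a log2 fold change of -0.30. TOMM70, the receptor for carrier proteins, did not pass as deposited: it averaged 73.5 ± 2.68 TPM in shFTO and 77.2 ± 2.18 TPM in shNS libraries, with a 95% interval of the log2 fold change from -0.15 to 0.011, but it was called lower after median scaling (-0.16, adjusted p = 0.00638). TOMM7, which regulates assembly of the complex and stabilises the kinase PINK1 at the gate, went the other way. It had 276, 274 and 244 TPM in shFTO libraries, against 218, 223 and 224 TPM in shNS libraries, and the groups did not overlap. Its rise was 1.19-fold, a log2 fold change of 0.25 with SE 0.051 (adjusted p = 0.000599).

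**Figure D1:**
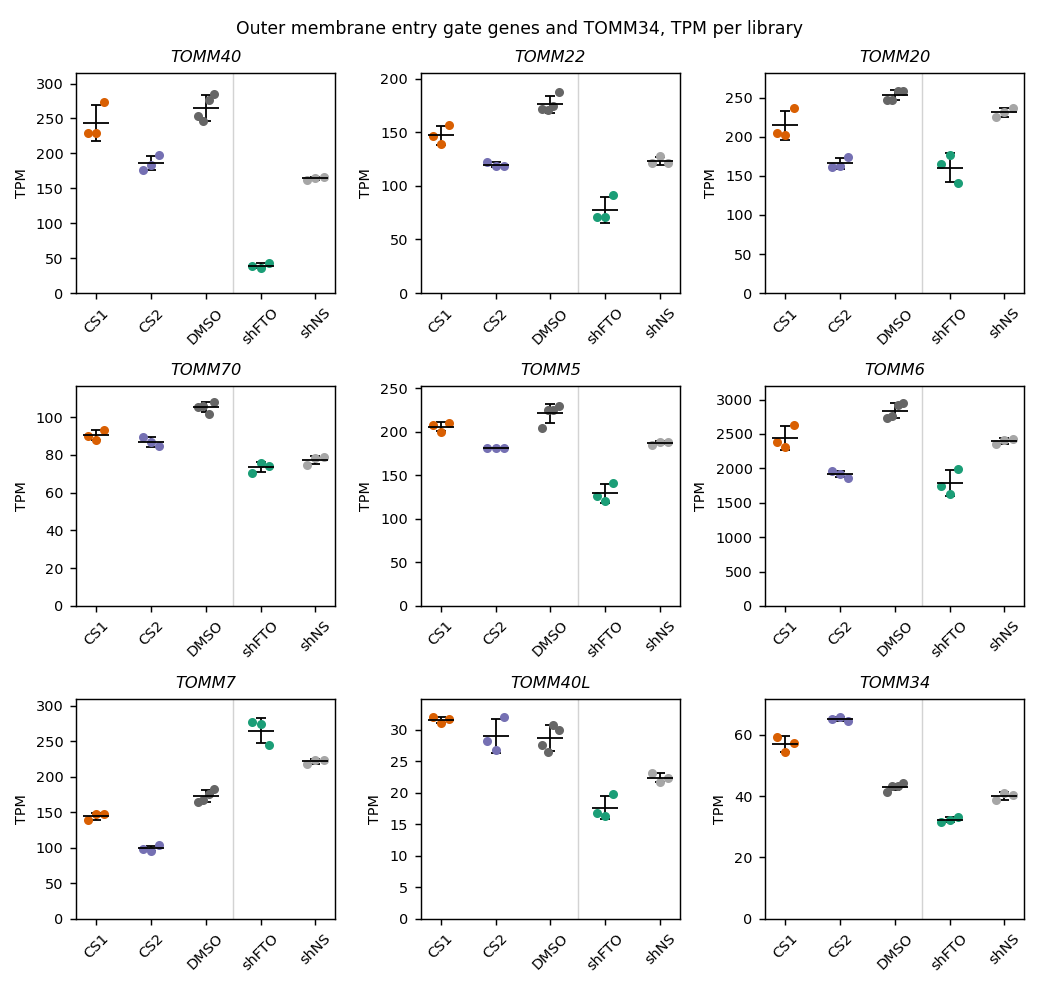
TPM (vertical axes, each starting at 0) of TOM genes and TOMM34 in every library (points), by group along the horizontal axis, with horizontal bars for group means and error bars of 1 SD. TOMM40 is at 36.6 to 43.2 TPM in the shFTO libraries and at 162 TPM or more in every other library, while TOMM7 is highest in shFTO.

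In the SAM complex the 3 genes differed with the hairpin. SAMM50, the channel that folds barrel proteins such as TOMM40 itself into the membrane, averaged 22.9 ± 1.15 TPM in shFTO and 36 ± 1.7 TPM in shNS libraries and fell (log2 fold change -0.63, adjusted p = 4.29e-08). MTX2, a cytosolic partner, had 72.2, 74.7 and 67.5 TPM in shFTO libraries, against 62.9, 65.7 and 67.8 TPM in shNS libraries. The lowest shFTO library lay below the highest shNS library. Its rise of 0.12 passed (adjusted p = 0.0268) but no longer did when libraries were scaled to a common median (0.04, adjusted p = 0.52), or in 4 of 6 fits that left out a library. MTX1, the other partner, averaged 37.6 ± 1.52 TPM in shFTO and 37.1 ± 2.97 TPM in shNS libraries and did not pass (95% interval -0.099 to 0.15).

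Of the 7 genes of the intermembrane space relay, 6 fell with the hairpin. TIMM10, a ring-forming chaperone that works with TIMM9, had 43.5, 37.5 and 48.9 TPM in shFTO libraries, against 92.2, 92.4 and 96.3 TPM in shNS libraries. TIMM13, which forms the other ring with TIMM8A, had 28.4, 27.8 and 38.5 TPM in shFTO libraries, against 53.2, 53.4 and 54.6 TPM in shNS libraries. In both genes all shFTO libraries lay below all shNS libraries, by a wider margin in TIMM10. The log2 fold changes were -1.1 for TIMM10 (SE 0.077, adjusted p = 2.37e-08) and -0.76 for TIMM13 (SE 0.11, adjusted p = 2.1e-05). Their ring partners fell less on this scale: TIMM9 averaged 46.8 ± 0.841 TPM in shFTO and 62.1 ± 0.929 TPM in shNS libraries (log2 fold change -0.40), and TIMM8A averaged 21.1 ± 1.1 TPM in shFTO and 30.3 ± 0.493 TPM in shNS libraries (-0.50). CHCHD4, the oxidoreductase that traps small TIM proteins by forming their disulfide bonds, averaged 29.4 ± 2.17 TPM in shFTO and 33.8 ± 0.588 TPM in shNS libraries (-0.20, adjusted p = 0.0047). TIMM10B, a small TIM bound to the TIM22 complex, was the exception. It had 33.7, 34.3 and 32.5 TPM in shFTO libraries, against 27, 28.5 and 27.8 TPM in shNS libraries, all shFTO values above all shNS values, a log2 fold change of 0.26 (SE 0.041, adjusted p = 7.45e-05).

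At the inner membrane, TIMM22, the channel for carrier proteins, averaged 15.5 ± 2.58 TPM in shFTO and 22.9 ± 0.74 TPM in shNS libraries and fell with the hairpin (log2 fold change -0.54). In the TIM23 machine 5 of 6 genes fell. TIMM17B, a channel subunit, had 45.3, 46.2 and 42 TPM in shFTO libraries, against 70, 79.8 and 79.1 TPM in shNS libraries. Its groups were clearly apart, with a log2 fold change of -0.76 (SE 0.054, adjusted p = 2.57e-08). TIMM50, the receptor that takes precursors over from the gate, averaged 31 ± 1.51 TPM in shFTO and 46.7 ± 1.12 TPM in shNS libraries, and TIMM21, which links the channel to the respiratory chain, 25.9 ± 1.9 TPM in shFTO and 40.7 ± 0.607 TPM in shNS libraries. Both fell, with log2 fold changes of -0.58 and -0.63. All 4 tested motor genes fell as well. GRPEL1, the nucleotide exchange factor of HSPA9, averaged 20 ± 2.5 TPM in shFTO and 32.7 ± 0.553 TPM in shNS libraries (-0.69), TIMM44, which tethers the motor to the channel, 53.2 ± 1.15 TPM in shFTO and 77.1 ± 1.31 TPM in shNS libraries (-0.53), and DNAJC19, a J-domain partner, 34.3 ± 0.708 TPM in shFTO and 41.8 ± 1.68 TPM in shNS libraries (-0.28). DNAJC19 and HSPA9 fell the least of the motor genes, HSPA9 with 263 ± 11.3 TPM in shFTO and 322 ± 7.79 TPM in shNS libraries (-0.29). TIMMDC1, an assembly factor of respiratory complex I that resembles the TIM channels, averaged 80.4 ± 2.13 TPM in shFTO and 98.9 ± 2.64 TPM in shNS libraries and fell too (-0.30).

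These hairpin counts held when libraries were rescaled: 26 genes lower and 3 higher with median scaling, of which 25 and 3 were the same genes and the further fall was TOMM70, and 25 lower and 4 higher with quantile normalization, all the same genes. Over all entries, 56.6% of calls were rises as deposited and 44.9% after median scaling, and the median of all entries moved by less than 0.1. Of all 14951 entries, 3661 were lower and 4776 higher as deposited. After median scaling 4612 were lower and 3759 higher, and with quantile normalization 4398 were lower and 4069 higher.

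**Figure D2:**
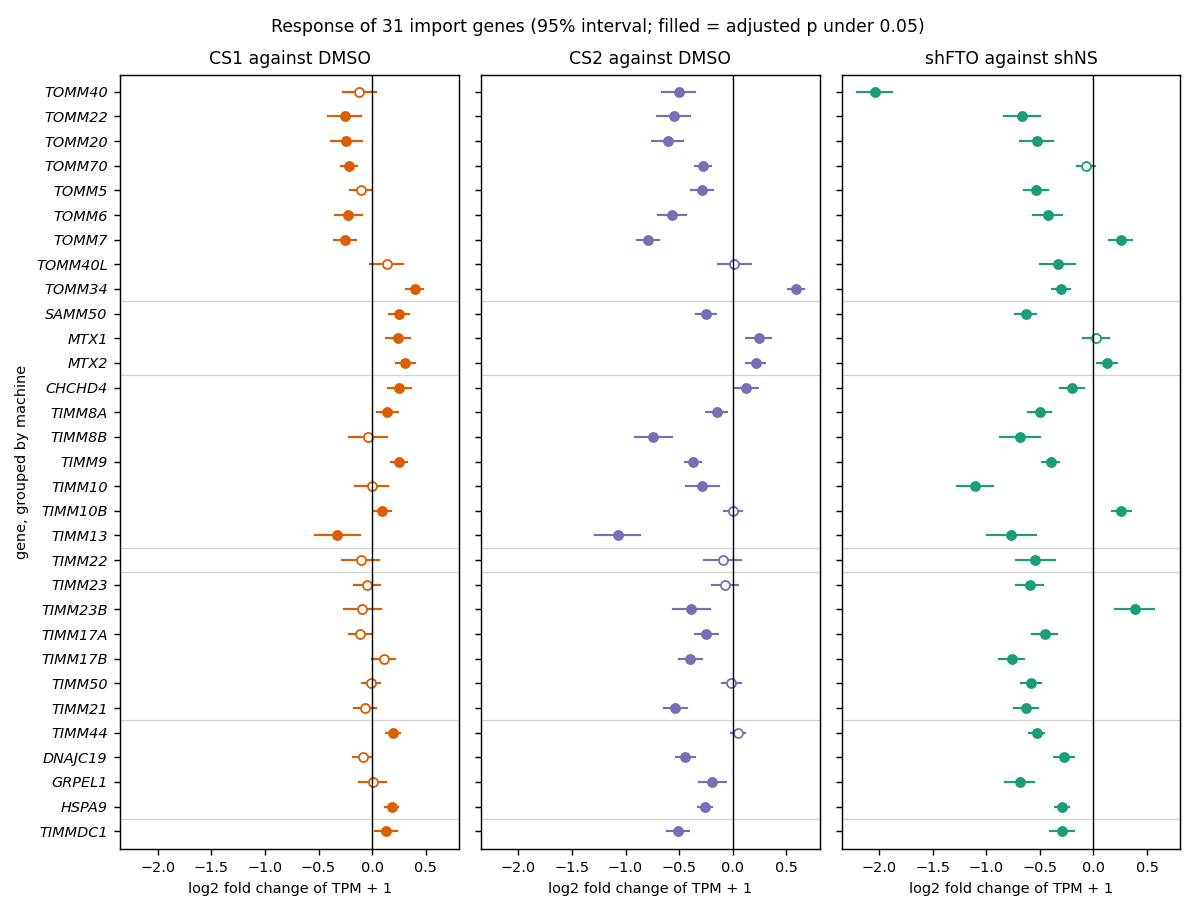
Log2 fold change of TPM + 1 (horizontal axes) for the 31 tested genes, grouped by machine down the page, with 1 panel per comparison with a control. Points are estimates, lines 95% intervals, and filled points passed an adjusted p under 0.05. In the hairpin panel TOMM40 stands apart at -2.04, and in the CS1 panel the estimates run from -0.32 to 0.40.

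With CS2, 21 of the 31 genes fell and 4 rose, where 24.6% of all entries were called lower and 49.5% higher. The median log2 fold change was -0.27 over the import genes and 0.20 over all entries. TOMM40 had 177, 184 and 198 TPM in CS2 libraries, against 253, 246, 276 and 285 TPM in DMSO libraries. All 3 CS2 libraries lay below all 4 DMSO libraries. The log2 fold change was -0.51 (SE 0.072, 95% interval -0.66 to -0.35, limma, adjusted p = 1.19e-05), or 1.42-fold lower.

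Of the 8 TOM genes 7 fell with CS2, among them the channel, all 3 receptors and all 3 small subunits (TOMM6 not with quantile normalization). TOMM7 had 98.5, 95.9 and 104 TPM in CS2 libraries, against 164, 167, 176 and 183 TPM in DMSO libraries. TOMM20 had 161, 163 and 174 TPM in CS2 libraries, against 247, 247, 259 and 258 TPM in DMSO libraries. In both the groups were far apart, with log2 fold changes of -0.79 for TOMM7 (SE 0.048, adjusted p = 7.66e-10) and -0.61 for TOMM20 (SE 0.067, adjusted p = 8.31e-07). TOMM22 averaged 119.6 ± 2.12 TPM in CS2 and 176 ± 7.76 TPM in DMSO libraries (-0.55), TOMM5 181 ± 0.379 TPM in CS2 and 221 ± 11.2 TPM in DMSO (-0.28) and TOMM70 86.9 ± 2.41 TPM in CS2 and 105 ± 2.69 TPM in DMSO (-0.27). TOMM6 averaged 1913 ± 44.7 TPM in CS2 and 2839 ± 109 TPM in DMSO libraries and fell as deposited (-0.57), but its estimate was 0.05 with quantile normalization (adjusted p = 0.446). TOMM34 rose: it had 65, 65.9 and 64.5 TPM in CS2 libraries, against 41.5, 43.2, 43.2 and 44.1 TPM in DMSO libraries. Every CS2 library was higher than every DMSO library, a log2 fold change of 0.59 (SE 0.036, adjusted p = 1.08e-09).

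The relay genes fell as a majority with CS2, 5 of 7. TIMM13 had 30.9, 33.9 and 36 TPM in CS2 libraries, against 68.2, 68.5, 74.5 and 75.8 TPM in DMSO libraries. TIMM8B, a chaperone of the same family as TIMM8A, had 48.4, 48.8 and 48.8 TPM in CS2 libraries, against 78.8, 78.9, 85.8 and 84.7 TPM in DMSO libraries. TIMM13 showed the deepest fall of any import gene with CS2, 2.1-fold (log2 fold change -1.07, SE 0.099, adjusted p = 1.03e-07), and TIMM8B followed TOMM7 at -0.74 (SE 0.081, adjusted p = 7.49e-07). TIMM9 averaged 44.8 ± 0.341 TPM in CS2 and 58.3 ± 2.06 TPM in DMSO libraries (-0.37), and TIMM10 averaged 98.7 ± 1.22 TPM in CS2 and 120.4 ± 5.09 TPM in DMSO libraries (-0.28). CHCHD4 had 51.4, 49.8 and 48.5 TPM in CS2 libraries, against 43.7, 45.2, 44.3 and 49.4 TPM in DMSO libraries. The groups overlap, since the lowest CS2 library is below the highest DMSO library, and its rise (0.13, adjusted p = 0.0292) turned to -0.10 with median scaling and with quantile normalization and was lost in 5 of 7 fits that left out a library.

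The SAM partners MTX1 and MTX2 were higher with CS2 as deposited. MTX1 had 43.4, 43.9 and 44.7 TPM in CS2 libraries, against 35.6, 37.2, 35.8 and 39.8 TPM in DMSO libraries. MTX2 had 74.5, 75.7 and 74.3 TPM in CS2 libraries, against 60.7, 66.1, 66.3 and 64.6 TPM in DMSO libraries. In neither gene did the groups overlap, with log2 fold changes of 0.24 (adjusted p = 0.000855) and 0.21 (adjusted p = 0.000252), but after median scaling they were 0.01 and -0.02 and did not pass. SAMM50 averaged 33.4 ± 0.396 TPM in CS2 and 40 ± 1.63 TPM in DMSO libraries and fell (-0.25). At the inner membrane TIMM22 did not pass as deposited (95% interval -0.27 to 0.076), but was called lower after median scaling (-0.32, adjusted p = 0.003) and quantile normalization (-0.31, adjusted p = 0.00399). Of the 6 TIM23 genes 4 fell, with TIMM21 at 38.9 ± 2.46 TPM in CS2 and 56.8 ± 1.98 TPM in DMSO libraries (-0.54), while TIMM50, at 55.7 ± 0.0513 TPM in CS2 and 56.4 ± 2.43 TPM in DMSO libraries, did not pass as deposited (95% interval -0.10 to 0.072) but was called lower after median scaling (-0.24, adjusted p = 0.000415) and quantile normalization (-0.25, adjusted p = 0.000184). In the motor DNAJC19 (-0.45), HSPA9 (-0.26) and GRPEL1 (-0.19) fell. TIMM44 averaged 103 ± 2.18 TPM in CS2 and 99.7 ± 3.29 TPM in DMSO libraries and did not pass as deposited, but was called lower after median scaling (-0.18) and quantile normalization (-0.20). TIMMDC1 averaged 62.9 ± 3.28 TPM in CS2 and 90.2 ± 4.34 TPM in DMSO libraries and fell (-0.51, adjusted p = 1.21e-07).

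The small rises with CS2 changed with the scaling of the libraries. Median scaling moved the median of all entries from 0.20 to -0.03, and quantile normalization moved it to -0.00052. With these, 27 and 26 of the 31 genes were lower and 1 was higher, TOMM34 in both. Of all 14951 entries, 3674 were lower and 7405 higher as deposited. After median scaling 5667 were lower and 5199 higher, and with quantile normalization 5346 were lower and 5395 higher. Of the 21 falls as deposited, median scaling kept 21 and quantile normalization 20. The 6 genes that did not pass as deposited (TIMM10B, TIMM22, TIMM23, TIMM44, TIMM50 and TOMM40L) were lower under both. Over all entries, 66.8% of calls were rises as deposited, 47.8% after median scaling and 50.2% after quantile normalization.

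With CS1 the import genes moved little and, as deposited, in both directions. Of the 31 genes 11 were higher and 6 lower, where 37.5% of all entries were called higher and 14.3% lower, so the share of rises was close to that of the table as deposited. After median scaling 2 of the 31 genes were higher, where 3201 of all 14951 entries were, and these shares were no longer close. The median log2 fold change was -0.01 over the import genes and 0.09 over all entries. TOMM40 had 229, 229 and 273 TPM in CS1 libraries, against 253, 246, 276 and 285 TPM in DMSO libraries. CS1 replicates 1 and 2 lay below all DMSO libraries, and CS1 replicate 3 lay among them. The log2 fold change of -0.12 (SE 0.072, 95% interval -0.27 to 0.032) did not pass (limma, adjusted p = 0.173). It passed after median scaling (-0.30, adjusted p = 0.0101), with quantile normalization (-0.19, adjusted p = 0.0417) and without CS1 replicate 3 (-0.21, adjusted p = 0.0213).

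The falls with CS1 were mostly among the 8 TOM genes, of which 5 fell, and all 6 falls were kept under both scalings. TOMM22 had 146, 139 and 156 TPM in CS1 libraries, against 171, 171, 175 and 187 TPM in DMSO libraries. TOMM7 had 139, 148 and 147 TPM in CS1 libraries, against 164, 167, 176 and 183 TPM in DMSO libraries. TOMM20 had 205, 202 and 236 TPM in CS1 libraries, against 247, 247, 259 and 258 TPM in DMSO libraries. In each, the highest CS1 library was below the lowest DMSO library, and the log2 fold changes were -0.26, -0.25 and -0.24 (SE 0.073, 0.048 and 0.067, adjusted p = 0.00822, 0.000391 and 0.0077). TOMM6 averaged 2438 ± 171 TPM in CS1 and 2839 ± 109 TPM in DMSO libraries (-0.22) and TOMM70 90.4 ± 2.67 TPM in CS1 and 105 ± 2.69 TPM in DMSO libraries (-0.22), and TOMM5, at 206 ± 5.49 TPM in CS1 and 221 ± 11.2 TPM in DMSO libraries, did not pass as deposited (95% interval -0.20 to -0.00090) but was called lower after median scaling (-0.28, adjusted p = 0.000828) and quantile normalization (-0.19, adjusted p = 0.000797). In the relay TIMM13 fell, with 51.9, 55 and 65.1 TPM in CS1 libraries, against 68.2, 68.5, 74.5 and 75.8 TPM in DMSO libraries. The groups did not overlap, but CS1 replicate 3 came close to DMSO, and the call (-0.32, SE 0.099, adjusted p = 0.0129) was lost in 2 of 7 fits that left out a library.

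The rises with CS1 were small. TOMM34 had 59.2, 54.3 and 57.4 TPM in CS1 libraries, against 41.5, 43.2, 43.2 and 44.1 TPM in DMSO libraries. MTX2 had 81.6, 80.7 and 77.7 TPM in CS1 libraries, against 60.7, 66.1, 66.3 and 64.6 TPM in DMSO libraries. These 2 genes did not overlap between groups, at log2 fold changes of 0.40 (SE 0.036, adjusted p = 3.85e-07) and 0.31 (SE 0.041, adjusted p = 1.82e-05), and no other rise passed after median scaling. SAMM50 had 48, 46.6 and 49 TPM in CS1 libraries, against 38.8, 38.8, 40.3 and 42.2 TPM in DMSO libraries. CHCHD4 had 55.2, 53.8 and 54.7 TPM in CS1 libraries, against 43.7, 45.2, 44.3 and 49.4 TPM in DMSO libraries. Their libraries were apart as deposited, with log2 fold changes of 0.25 (adjusted p = 0.000187) and 0.25 (adjusted p = 0.000503), but after median scaling both were 0.08 and did not pass. TIMM9 averaged 69.6 ± 2.87 TPM in CS1 and 58.3 ± 2.06 TPM in DMSO libraries (0.25), HSPA9 481 ± 1.89 TPM in CS1 and 423 ± 5.77 TPM in DMSO libraries (0.18), TIMM44 114 ± 2.02 TPM in CS1 and 99.7 ± 3.29 TPM in DMSO libraries (0.20) and TIMMDC1 98.8 ± 5.67 TPM in CS1 and 90.2 ± 4.34 TPM in DMSO libraries (0.13), and none of these 4 rises passed after median scaling, where TIMMDC1 turned to -0.05. TIMM22 and the 6 TIM23 genes did not pass with CS1 as deposited. Of the 14 genes that did not pass, 9 were called lower under both scalings (DNAJC19, TIMM17A, TIMM21, TIMM22, TIMM23, TIMM23B, TIMM50, TOMM40 and TOMM5). As deposited, the 95% intervals of the log2 fold change ran from -0.28 to 0.29.

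Of the 11 rises with CS1, median scaling kept 2 and quantile normalization kept 5, MTX2, TOMM34, HSPA9, SAMM50 and TIMM9. The lower genes numbered 16 and 15 under these settings, against 6 as deposited. Of all 14951 entries, 2142 were lower and 5605 higher as deposited. After median scaling 5246 were lower and 3201 higher, and with quantile normalization 4267 were lower and 3718 higher. Median scaling moved the median of all entries from 0.09 to -0.09, and 72.4% of all calls were rises as deposited, 37.9% after median scaling and 46.6% after quantile normalization.

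**Figure D3:**
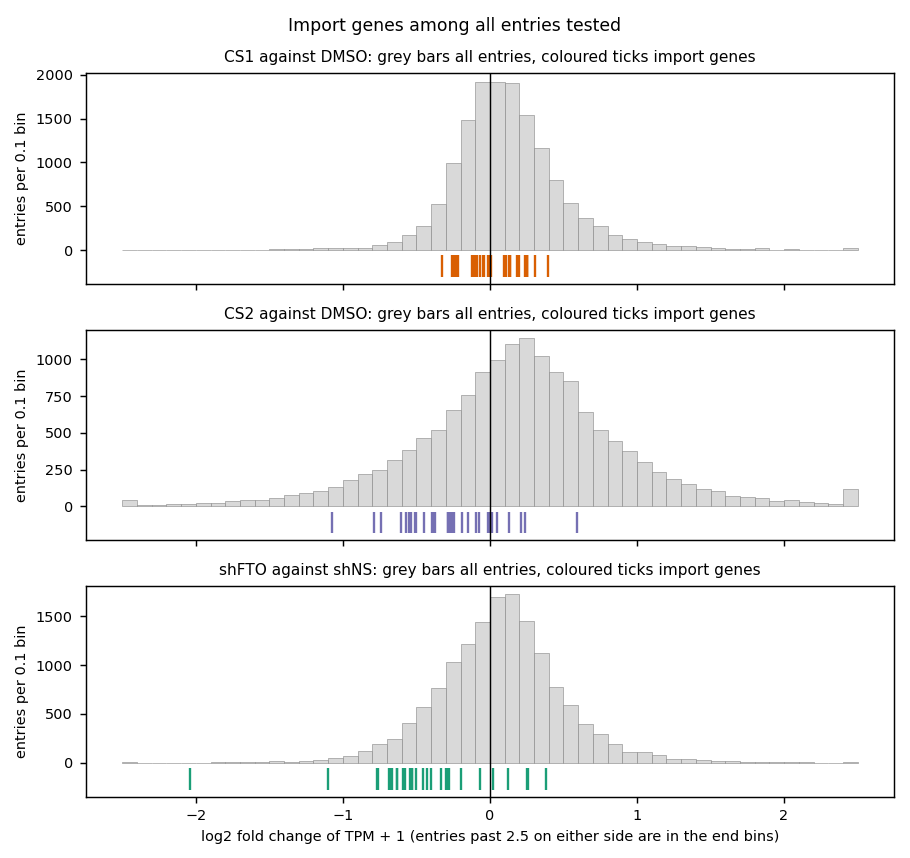
Number of entries per 0.1 bin of log2 fold change (grey bars, vertical axes) for each comparison with a control, with a coloured tick for each of the 31 import genes. In the hairpin panel the ticks lie mostly left of 0, around a median of -0.50, and in the CS1 panel they straddle 0.

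CS1 and CS2 share the DMSO libraries, so that their responses are not independent, and they were given at different doses, 100 nM and 500 nM. Set against each other directly, 22 of the 31 genes were higher in CS1 and 1 was lower, where 26.2% of all entries were called higher in CS1 and 40.4% lower. TOMM40, with the values given above, was higher in CS1 than in CS2 without overlap (log2 fold change 0.38, 95% interval 0.22 to 0.55, adjusted p = 0.000438). TIMM13 (0.75, adjusted p = 1.74e-05) and TOMM7 (0.54, adjusted p = 2.69e-07) were also higher in CS1, and TIMM10 was by 0.28 (adjusted p = 0.00498). The gene lower in CS1 was TOMM34 (-0.19, adjusted p = 0.00053), a call that quantile normalization did not keep (-0.09, adjusted p = 0.0663). TOMM6 was higher in CS1 as deposited (0.35, adjusted p = 0.000216) and lower in CS1 with quantile normalization (-0.21, adjusted p = 0.00406). All 4 motor genes were higher in CS1. The doses differ, so these values describe the 2 treatments as given and make no comparison of potency.

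The response to each compound was then set against the response to the hairpin, as the difference of the 2 log2 fold changes, for which the controls are separate. For CS1, 26 of 31 differences were positive and 4 negative, where 31% of all entries were called positive and 18.3% negative. For CS2, 16 were positive and 6 negative, where 39.8% of all entries were called positive and 23.7% negative. The CS1 counts were 21 and 4 after median scaling, but the CS2 counts became 11 and 8, and 11 and 11 with quantile normalization. Over all 14951 entries, the positive and negative counts for CS1 were 4638 and 2742 as deposited, and 3756 and 4072 after median scaling. For CS2 they were 5947 and 3538 as deposited, 4875 and 4684 after median scaling, and 4843 and 4612 with quantile normalization. Over all entries, positive differences made up 62.8% of calls for CS1 as deposited and 48.0% after median scaling, and 62.7% and 51.0% for CS2. TOMM40 had the largest differences, 1.92 for CS1 (95% interval 1.69 to 2.14, adjusted p = 4.36e-09) and 1.54 for CS2 (1.31 to 1.76, adjusted p = 7.5e-09). The fall of TOMM40 was thus smaller with either compound than with the hairpin, as each was given. The compounds were given for 72 h, and the hairpin cells were kept in puromycin for 1 week. TOMM40 also averaged 265 TPM in DMSO libraries and 165 TPM in shNS libraries. The part of these differences was not tested. For TIMM10 the differences were 1.1 for CS1 (adjusted p = 8.99e-07) and 0.82 for CS2 (adjusted p = 6.33e-06). TOMM7 differed the other way, by -0.51 for CS1 (adjusted p = 2.9e-05) and -1.05 for CS2 (adjusted p = 5.7e-09), since it fell with the compounds and rose with the hairpin. TIMM23B did as well, by -0.48 for CS1 (adjusted p = 0.00374) and -0.77 for CS2 (adjusted p = 3.85e-05). For TOMM34, which rose with the compounds and fell with the hairpin, they were 0.70 and 0.89 (adjusted p = 1.05e-07 and 1.91e-09). For TIMM13 the difference for CS2 did not pass (-0.31, 95% interval -0.62 to 0.0015).

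Gene by gene across the 3 comparisons with a control, CS1 and CS2 share the DMSO libraries, so their calls are not independent, and each pattern is set beside its share of all 14951 entries tested. As deposited, 4 of the 31 genes fell in all (TIMM13, TOMM20, TOMM22 and TOMM6), as did 4.53% of all entries, though TOMM6 did not fall with CS2 under quantile normalization. MTX2 was the gene called higher in all 3, as were 13.2% of entries. Its CS2 rise passed under neither scaling, and its hairpin rise did not pass after median scaling. TOMM7 fell with both compounds and rose with the hairpin, a pattern of 1.82% of entries. TOMM34 and CHCHD4 rose with both compounds and fell with the hairpin, as did 5.96% of entries, but the rises of CHCHD4 passed under neither scaling with either compound. A further 9 genes, TOMM40 among them, fell with CS2 and the hairpin and did not pass with CS1 as deposited, against 3.98% of entries. Of these, DNAJC19, TIMM17A, TIMM21, TOMM40 and TOMM5 were called lower with CS1 under both scalings, and GRPEL1 after median scaling. The 5 genes HSPA9, SAMM50, TIMM8A, TIMM9 and TIMMDC1 were higher with CS1 and lower with CS2 and the hairpin, against 0.97% of entries. Of their CS1 rises none passed after median scaling, while those of HSPA9, SAMM50 and TIMM9 passed with quantile normalization.

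Related genes within a machine did not always move together. TOMM40L had 16.9, 16.3 and 19.8 TPM in shFTO libraries, against 23.1, 21.8 and 22.4 TPM in shNS libraries. It fell without overlap by a log2 fold change of -0.33 (SE 0.076, adjusted p = 0.00165), where TOMM40 fell by 2.04. With CS1 and CS2 it averaged 31.6 ± 0.509 and 29 ± 2.74 TPM, against 28.7 ± 2.02 TPM in DMSO libraries, and neither passed as deposited (95% intervals -0.015 to 0.29 and -0.14 to 0.17), though with CS2 it was called lower after median scaling (-0.22) and quantile normalization (-0.20).

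TIMM23, the channel of the TIM23 machine, had 62.2, 63.2 and 75 TPM in shFTO libraries, against 96.1, 101 and 106 TPM in shNS libraries. TIMM23B had 53.5, 54.3 and 55.7 TPM in shFTO libraries, against 41.6, 38.9 and 44.3 TPM in shNS libraries. The 2 copies moved in opposite directions, both without overlap: TIMM23 fell (-0.59, SE 0.060, adjusted p = 8.86e-07) and TIMM23B rose (0.38, SE 0.086, adjusted p = 0.0015). In CS2 libraries TIMM23B had 33.4, 32 and 29.3 TPM, against 41.9, 41.1, 44.8 and 38.4 TPM in DMSO libraries, and it fell (-0.39, adjusted p = 0.000485). TIMM23 had 130.2, 120.1 and 128 TPM in CS2 libraries, against 129.9, 129.7, 134 and 137 TPM in DMSO libraries, which overlap and did not pass as deposited (-0.073), though it was called lower after median scaling (-0.30) and quantile normalization (-0.30). With CS1 neither copy passed as deposited, at 128 ± 1.91 TPM for TIMM23 and 39.1 ± 5.55 TPM for TIMM23B, and both were called lower under both scalings.

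TIMM17A, the other channel partner beside TIMM17B, had 63.6, 72.8 and 76.7 TPM in shFTO libraries, against 96.5, 97.8 and 97.6 TPM in shNS libraries. TIMM17A was the higher gene of the pair in every library, and the difference in TPM was smaller in shFTO and shNS libraries than in the other 3 groups. It fell by a log2 fold change of -0.45 with the hairpin (adjusted p = 5.37e-06), against -0.76 for TIMM17B. With CS2 TIMM17A averaged 118 ± 1.97 TPM in CS2 and 140.1 ± 5.43 TPM in DMSO libraries (-0.25, adjusted p = 0.000443), and TIMM17B averaged 43.2 ± 0.465 TPM in CS2 and 57.1 ± 2.65 TPM in DMSO libraries (-0.39, adjusted p = 3.74e-06). With CS1 neither passed as deposited, at 129.7 ± 4.49 TPM for TIMM17A and 61.7 ± 1.93 TPM for TIMM17B, and TIMM17A was called lower under both scalings.

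TIMM8A, the gene mutated in deafness-dystonia syndrome, had 55.2, 54.2 and 54.4 TPM in CS1, 42.7, 47.2 and 43.5 TPM in CS2 and 52.9, 47.6, 48.1 and 49.6 TPM in DMSO libraries. TIMM8B had 75.9, 76.1 and 87.6 TPM in CS1 libraries, beside the CS2 and DMSO values above. Both fell with CS2, TIMM8A by -0.15 and TIMM8B by -0.74, and both fell with the hairpin, TIMM8A by -0.50 and TIMM8B by -0.68. With CS1, TIMM8A rose as deposited (0.14, adjusted p = 0.019) but turned to -0.04 after median scaling, and TIMM8B did not pass as deposited (95% interval -0.21 to 0.13). MTX1 had 42.7, 43.2 and 46 TPM in CS1 libraries, against 35.6, 37.2, 35.8 and 39.8 TPM in DMSO libraries, and rose as deposited (0.24, adjusted p = 0.00163), but after median scaling the value was 0.06 and did not pass.

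**Figure D4:**
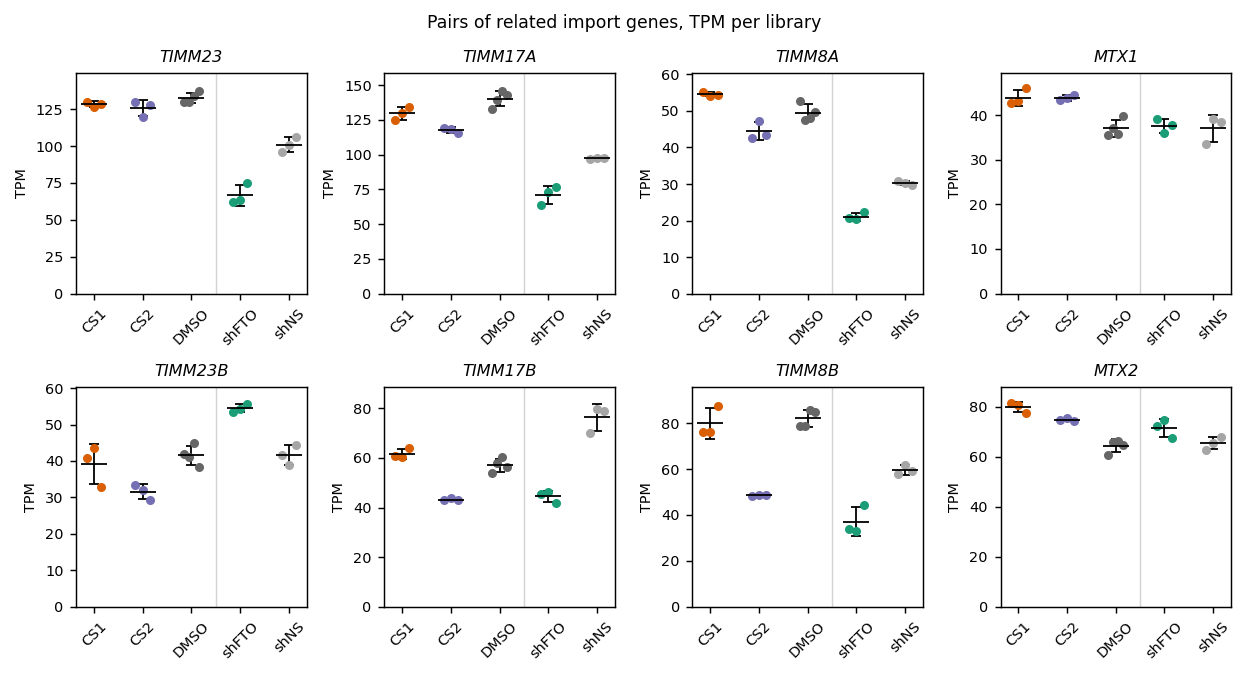
TPM (vertical axes, starting at 0) of 4 pairs of related genes, 1 pair per column, in every library (points), by group along the horizontal axis, with horizontal bars for group means and error bars of 1 SD. TIMM23 is lower in shFTO than in shNS libraries while TIMM23B is higher in the same libraries.

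Genes that act before or after the import machines were counted from 5 lists, against shares of all entries of 14.3% lower and 37.5% higher with CS1, 24.6% lower and 49.5% higher with CS2, and 24.5% lower and 31.9% higher with the hairpin. The list medians of the log2 fold change ran from -0.22 to 0.07 with CS1, from -0.40 to 0.09 with CS2 and from -0.48 to -0.11 with the hairpin, where the medians of all entries were 0.09, 0.20 and 0.07. Of 13 processing and folding genes, 7 fell and 2 rose with CS1, 9 fell and 2 rose with CS2, and 10 fell and 0 rose with the hairpin. HSPE1, the co-chaperonin of the matrix, averaged 219 ± 48.1 TPM in shFTO and 387 ± 3.02 TPM in shNS libraries (-0.84, adjusted p = 4.6e-06). PMPCA, a subunit of the peptidase that removes targeting signals, averaged 36.9 ± 2.85 TPM in shFTO and 63.8 ± 2.42 TPM in shNS libraries (-0.78), and 34.9 ± 1.61 TPM in CS2 and 77.4 ± 3.49 TPM in DMSO libraries (-1.13). Of 14 outer membrane and MICOS genes, 3 fell and 2 rose with CS1, 8 fell and 6 rose with CS2, and 10 fell and 3 rose with the hairpin. VDAC1, the metabolite channel of the outer membrane, averaged 189 ± 9.4 TPM in shFTO and 280.1 ± 8.35 TPM in shNS libraries (-0.57), and MTCH1 averaged 192 ± 3.83 TPM in CS2 and 104 ± 5.67 TPM in DMSO libraries, a rise of 0.89. Of 9 genes of cytosolic delivery, 4 fell and 1 rose with CS1, 4 fell and 5 rose with CS2, and 7 fell and 0 rose with the hairpin. HSPA8, the cytosolic chaperone that keeps precursors unfolded, averaged 581 ± 12.4 TPM in CS2 and 1911 ± 95 TPM in DMSO libraries (-1.71, adjusted p = 3.63e-11). Of 7 inner membrane and redox relay genes, 1 fell and 2 rose with CS1, 3 fell and 3 rose with CS2, and 3 fell and 0 rose with the hairpin. GFER, the oxidase that recharges CHCHD4, averaged 18.2 ± 0.153 TPM in CS2 and 10.4 ± 0.418 TPM in DMSO libraries (0.76, adjusted p = 6.96e-10). Of 8 quality control proteases, 2 fell and 1 rose with CS1, 4 fell and 1 rose with CS2, and 4 fell and 0 rose with the hairpin. With lists of this size, counts such as 1 of 7 redox relay genes or 3 of 14 outer membrane genes lower with CS1 lie near the share of the table. C19orf52 is an older symbol of TIMM29, a subunit of the TIM22 complex. It averaged 37.3 ± 1.69 TPM in CS2 and 22.5 ± 0.63 TPM in DMSO libraries and rose (0.70, adjusted p = 4.09e-08).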

How the data were processed

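The deposited values are TPM made by the authors, with 1 column for each of 16 libraries and the same total in each. The submitters' processing notes name RSEM 1.2.31 and build GRCh38, and no aligner or annotation is named in the sources used here. That the unit is TPM was read from these totals. All columns were assigned by name, and 0 pairs of libraries were identical. Of 26830 entries, the 14951 that reached 1 TPM in 3 or more libraries were tested. On log2(TPM + 1), limma 3.58.1 (R 4.3.3, eBayes with trend) estimated a mean for each of the 5 groups, a scale that understates changes of low genes. Tests were two-sided, adjusted by Benjamini-Hochberg over all entries of a comparison, and passed at an adjusted p under 0.05. There were 6 comparisons. Errors are SD over libraries, and intervals are 95%.

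The members and lists were chosen with earlier results of these data known. TOMM40, the 4 largest rises and 4 largest falls past the threshold in each comparison with a control, and 5 pairs of related genes are given by library. Up to 3 genes with the largest change could be named per further list, and not all are printed. Alternatives were a pseudocount of 0.1, no filter, a filter of 5 TPM, median scaling, quantile normalization, a block for replicate number, fits of only the groups compared, and leaving out each library. Gene positions came from GENCODE 29, and promoter windows (250 bases before and 50 after the start) from RefSeq. Only members with a window were searched for motifs. The fit was tested on simulated data. Figures were drawn with Python 3.11.15 and matplotlib 3.10.9. PAM16 was not analysed here.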

Additional observations from a re-analysis of the deposited data

Results flagged for a closer look

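TOMM5 had 205 TPM in DMSO replicate 1, apart from 225 to 229.5 TPM in the other 3 DMSO libraries. The gap to the nearest library was 0.83 of the group's range, past the 95% limit of Dixon's test for 4 libraries. It was the only case among 33 values tested (the 32 genes and their sum), and chance gives about 1 in 20 groups.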

How the results depend on the processing

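Depth is unknown, so counting error could not be given. Counts of falls with CS2 and the hairpin stayed within 1.5 times of those given under every alternative run. Median scaling changed the CS1 counts to 2 higher and 16 lower, and the CS2 rises to 1, and quantile normalization changed them to 5, 15 and 1. The counts over all entries, given above, changed under these settings as well. Quantile normalization gave 11 negative differences of CS2 minus hairpin, against 6 as deposited. TOMM6 was then -0.21 for CS1 against CS2 and 0.43 for CS2 minus hairpin. TOMM40 with CS1 was -0.30 with median scaling, -0.19 with quantile normalization, and -0.21 to -0.079 with a library left out.

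Signs that turned with CS1 under median scaling were TIMM10B (-0.081), TIMM17B (-0.069), TIMM8A (-0.039), TOMM40L (-0.041), GRPEL1 (-0.17), TIMMDC1 (-0.047), C19orf52 (-0.12), OXA1L (-0.039) and YME1L1 (-0.00093). With quantile normalization they were TIMM10B (-0.039), TIMM17B (-0.026), TIMM8A (-0.0050), TOMM40L (-0.0023), GRPEL1 (-0.13) and C19orf52 (-0.10). With CS2 under median scaling they were CHCHD4 (-0.10), MTX2 (-0.015), TIMM10B (-0.23), TOMM40L (-0.22), TIMM44 (-0.18) and HTRA2 (-0.0071), and with quantile normalization CHCHD4 (-0.10), MTX2 (-0.018), TIMM10B (-0.21), TOMM40L (-0.20), TIMM44 (-0.20) and TOMM6 (0.045). With the hairpin MTX1 was -0.062 under median scaling. The cause was not tested.

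With a library left out, log2 fold changes ran from -0.067 to 0.059 for TIMM10, -0.17 to 0.024 for TIMM23B, -0.023 to 0.024 for GRPEL1 and -0.035 to 0.016 for TIMM50 with CS1, from -0.00996 to 0.015 for TIMM10B, -0.058 to 0.068 for TOMM40L and -0.040 to 0.0079 for TIMM50 with CS2, and from -0.043 to 0.062 for MTX1 with the hairpin. Counts ran from 8 to 11 higher and 5 to 8 lower with CS1, 3 to 4 higher and 21 lower with CS2, and 3 to 4 higher and 25 lower with the hairpin. Negative differences of CS1 minus hairpin ran from 2 to 4, and were 2 without CS1 replicate 1, shNS replicate 1 or shFTO replicate 2.

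The labels give same-numbered libraries a shared number and state no other link between them. Their deviations from group means correlated at 0.0853 to 0.219 for CS1 and CS2, -0.00925 to 0.101 for CS1 and DMSO, 0.0244 to 0.0786 for CS2 and DMSO, and 0.00439 to 0.0764 for shFTO and shNS, across entries. With a replicate block CS1 gave 10 higher and 6 lower, CS2 4 and 21, and the hairpin 4 and 25, and TIMM10 with CS1 was 0.017. For CS1 and CS2, and for shFTO and shNS, 3 of 3 libraries correlated best with their own number, a hint from the data and not from the design. For CS1 and DMSO 2 of 3 did, and for CS2 and DMSO 1 of 3. The match of shFTO replicate 3 was slight, at 0.00439 with shNS replicate 3 against 0.000676 with shNS replicate 2. Without TOMM6 the sums were 3057 in CS1, 2473 in CS2, 3085 in DMSO, 1930 in shFTO and 2566 TPM in shNS. Rescaled without ribosomal RNA and mitochondrial-like entries they were 4607 in CS2, 6354 in DMSO, 4013 in shFTO and 5309 TPM in shNS.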
